A study of Mus musculus with 42 samples.

Results

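The 34 genes described here are the enzymes, carriers and regulators of glycolysis together with genes of the hypoxia-inducible factor (HIF) pathway. They were chosen by gene symbol from the probe sets of 42 expression arrays of cultured mouse synovial fibroblasts. Of the 34 genes, 31 were measured, among 18194 genes in all. Gpi1 and Eno1 had no probe set listed with a single gene, and the 3 probe sets of Bnip3l are also listed with another gene, so these members were not analysed here. The 31 measured members had 70 probe sets, and 20 of them had more than 1.

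Glycolysis splits glucose into pyruvate, and cells that send the pyruvate on to lactate can make energy without oxygen. When oxygen is short, the HIF alpha subunits escape hydroxylation by the prolyl hydroxylases, accumulate, pair with their partner ARNT and bind DNA near genes of glucose uptake, glycolysis, lactate export and blood vessel growth. Inflammatory stimuli can raise many of these genes with oxygen present, and in the inflamed joint lining both low oxygen and high glycolysis have been described.

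The cells were synovial fibroblasts from female BALB/c mice in which arthritis had been induced by immunisation with cartilage proteoglycan in the adjuvant DDA, so all groups share that disease. They were labelled as TSG-6 knockout (Tnfaip6-deficient, 27 arrays, KO below) or wild-type (WT, 15 arrays), and TSG-6 is a hyaluronan-binding protein made during inflammation. Cultures of up to 6 passages were kept overnight in 0.5% fetal calf serum and then for 12 h with 5 ng/ml TNFa (KO 4 arrays, WT 2), 200 ng/ml LPS (KO 4, WT 2), 120 ug/ml recombinant mouse TSG-6 (KO 3, WT 2), 24 ug/ml hyaluronan (HA; KO 4, WT 2) or both TSG-6 and HA at these doses (KO 4, WT 2), or were left untreated (KO 8, WT 5). The cultures are described as biological replicates, and whether they came from different mice is not stated, so p-values measure only the spread between these cultures.

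The values are log2 expression relative to the median of each probe set over the 42 arrays, so they compare arrays for a gene and give no level of a gene against another. Differences are of group means on this scale, given ± SE from a limma fit over all 42 arrays, and a gene was called when its Benjamini-Hochberg adjusted p over the 18194 genes was under 0.05. The knockout label could not be checked: Tnfaip6 averaged -0.11 ± 0.23 in untreated KO cultures and -0.37 ± 0.16 in untreated WT cultures (SD, n = 8 and 5), a difference of 0.26 ± 0.16 (limma, adjusted p = 0.22), and no source used here says whether its probe set lies in the deleted part. Within each genotype the arrays fell into a pair of culture sets, a and b, that the labels do not name (KO 14 and 13 arrays, WT 8 and 7), found from probe sets whose values leave 1 log2 unit or more empty between the sets. The 18S ribosomal RNA probe set exceeded 1 on 15 arrays (KO 10, WT 5). The 5 WT arrays were all in set b, namely untreated replicate 5 and replicate 2 with TNFa, LPS, HA and TSG-6 with HA. In those treated WT groups, leaving out the arrays high in 18S and leaving out replicate 2 are not separate checks. The mean of 11 endothelial markers lay between -1.42 and 0.28 on the KO arrays and between 3.26 and 4.03 on the WT arrays, so the genotypes did not overlap. Within the KO arrays it lay between -0.51 and 0.28 in set a and between -1.42 and -1.15 in set b. The mean of 6 chondrocyte markers did not overlap either, at -0.10 to 0.50 on the KO arrays and -1.36 to -0.87 on the WT arrays. Since values are centred, the presence of fibroblast markers could not be checked against other genes. In bulk RNA, fewer cells of a type and less RNA per cell cannot be told apart.

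In the KO cultures the members that rose most often were Pfkfb3, which controls the flux of glycolysis (5 of 5 treatments), Hk2, which performs its entry step (4), and P4ha2, which modifies collagen (4), while Ndrg1 fell in 3. With TNFa 9 members rose and 1 fell, where 14.0% of all genes were called, 6.71% higher and 7.32% lower. With LPS 7 rose and 0 fell, where 1.79% of all genes were called, 0.973% higher and 0.819% lower. With TSG-6 7 rose and 1 fell, where 4.75% of all genes were called, 2.10% higher and 2.65% lower. With HA 3 rose and 0 fell, where 0.643% of all genes were called, 0.429% higher and 0.214% lower. With TSG-6 and HA together 6 rose and 1 fell, where 9.94% of all genes were called, 3.33% higher and 6.61% lower. The median difference over the 31 members was 0.28 with TNFa, 0.30 with LPS, 0.23 with TSG-6, 0.15 with HA and 0.22 with both, while the median over all genes lay between -0.00481 and 0.0106. All 5 comparisons use the same 8 untreated arrays. Every member called kept its sign within both culture sets, which was likely in advance because the calls were made over these same arrays. In fits within each set alone, with fewer arrays, 7 members were called higher in both sets with TNFa. None were called in both sets with LPS or HA, and 2 were higher and 1 lower in both with TSG-6 and HA. TSG-6 alone had 1 array in set b. Shares of all genes were not counted within the sets. Without the 15 arrays high in 18S the counts called were 6 for TNFa, 2 for LPS, 3 for TSG-6, 0 for HA and 4 for both. Leaving out 1 array moved the LPS count to 3 (without LPS replicate 1) or 4 (without replicate 2 or 3), the TSG-6 count to 3 (without replicate 1 or 2) or 4 (without replicate 3), and the HA count to 0 (without HA replicate 1 or 3) or 1 (without HA replicate 2, or untreated replicate 7 or 8). With the compared groups alone the TSG-6 count was 4 and the HA count 1. With the culture set as a block the HA count was 5, where 1.68% of all genes were called. With the mean of all probe sets the count for both agents was 11. Here and below, a refit count without a share of all genes beside it does not show whether the members moved more than all genes.

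In the WT cultures fewer members passed, with 2 arrays in each treated group. Hk2, the hexokinase induced by growth and stress signals, rose in 4 of the 5 treatments, and Fbp1, the enzyme that reverses the phosphofructokinase step, rose in 3. With TNFa 2 members rose and 0 fell, where 2.56% of all genes were called, 1.41% higher and 1.15% lower. With LPS 6 rose and 0 fell, where 1.19% of all genes were called, 0.737% higher and 0.456% lower. With TSG-6 2 rose and 0 fell, where 0.429% of all genes were called, 0.275% higher and 0.154% lower. With TSG-6 and HA 3 rose and 0 fell, where 0.802% of all genes were called, 0.368% higher and 0.434% lower. With HA 0 members were called by limma, where 0.132% of all genes were called, 0.0934% higher and 0.0385% lower, and 5 of the 31 members had an unadjusted p under 0.05. The median difference over the members was 0.04 with TNFa, 0.49 with LPS, 0.32 with TSG-6, 0.15 with HA and 0.27 with both, against medians over all genes between -0.00352 and 0.00651. All 5 comparisons use the same 5 untreated arrays. With the culture set as a block the counts were 4 for TNFa (where 4.59% of all genes were called), 12 for LPS (2.87%), 4 for TSG-6 (1.18%), 1 for HA (0.374%) and 6 for TSG-6 with HA (2.46%). With the compared groups alone they were 1 for TNFa, 3 for LPS, 1 for TSG-6 and 1 for TSG-6 with HA, and after cyclic loess the HA count was 2. Without the arrays high in 18S the counts were 1 for TNFa, 2 for LPS and 1 for TSG-6 with HA. Leaving out 1 array gave 1 for TNFa (without either TNFa array or without untreated replicate 1, 2 or 3), 3 or 2 for LPS (without LPS replicate 1 or 2), 1 for TSG-6 (without either TSG-6 array), 1 for HA (without untreated replicate 1) and 1 for TSG-6 with HA (without its replicate 2).

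**Figure D1:**
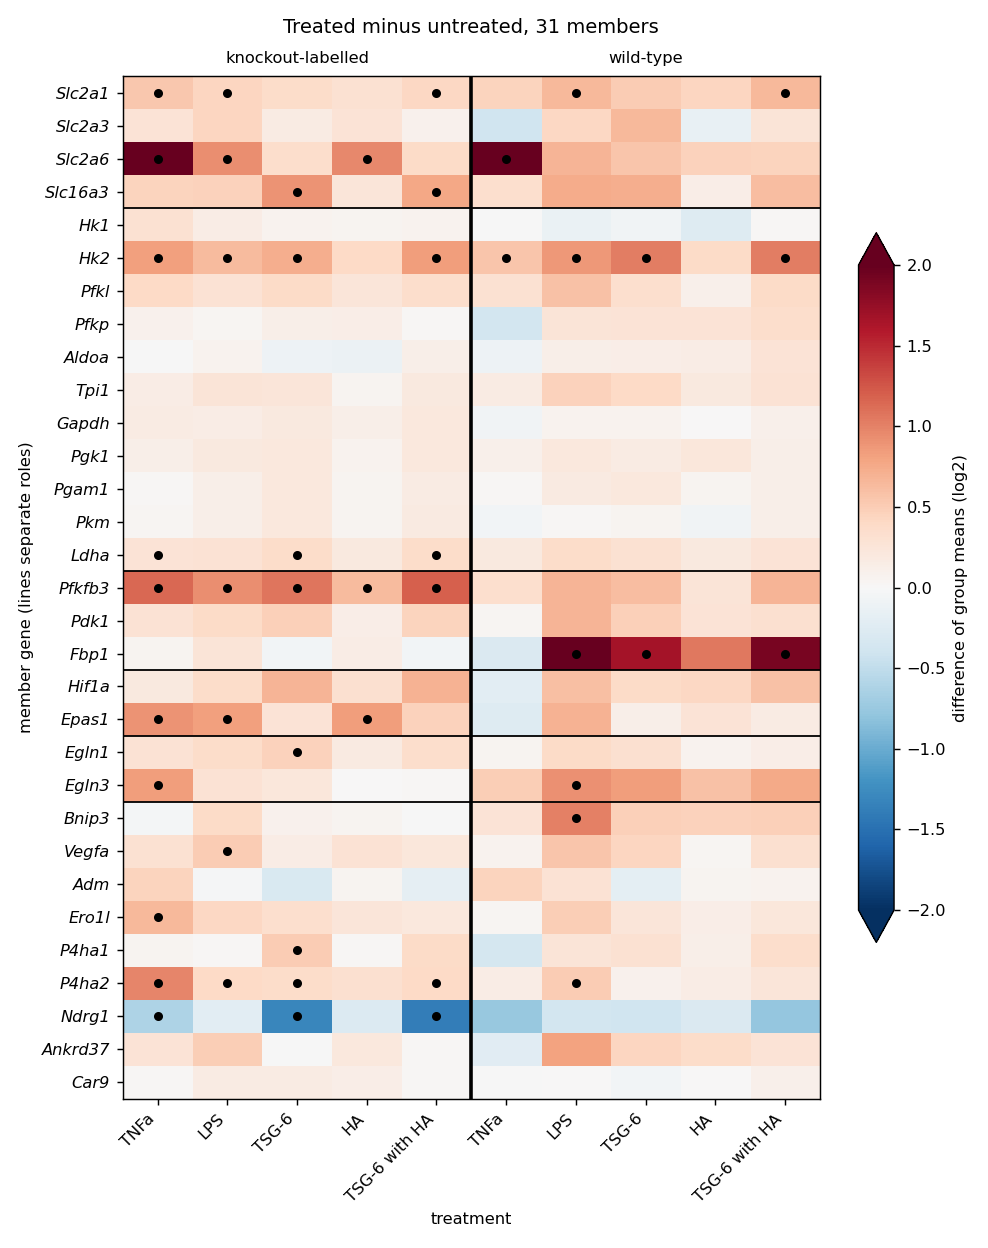
Difference of group means, treated minus untreated (log2, colour scale from -2 to 2 with larger values at the end colours), for the 31 measured members (vertical axis, grouped by role) under 5 treatments in KO cultures (left) and WT cultures (right). Dots mark the 48 of 310 differences with an adjusted p under 0.05, 45 of them higher and 3 lower, the 3 being Ndrg1 in KO cultures.

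The promoters are shown for the 4 members called in 5 or more of the 10 treatment comparisons (Slc2a1, Hk2, Pfkfb3 and P4ha2) and for Fbp1, whose responses differed between the genotypes. RefSeq windows on build GRCm38.p6 run from 250 bases before to 50 bases after each start and were found for 28 of the 31 members, not for Slc2a3, Epas1 and Ndrg1. Capitals mark ACGTG or GCGTG read on either strand, the core letters of the hypoxia response element, so that CACGT and CACGC are the same letters on the other strand.
Slc2a1, chr4:119108495-119108794, plus strand: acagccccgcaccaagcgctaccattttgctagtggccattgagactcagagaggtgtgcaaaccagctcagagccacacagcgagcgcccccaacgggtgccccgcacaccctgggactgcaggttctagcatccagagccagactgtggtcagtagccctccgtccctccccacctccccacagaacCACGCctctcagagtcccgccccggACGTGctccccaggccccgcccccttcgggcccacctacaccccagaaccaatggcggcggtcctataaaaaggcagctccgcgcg
Hk2, chr6:82774405-82774704, minus strand: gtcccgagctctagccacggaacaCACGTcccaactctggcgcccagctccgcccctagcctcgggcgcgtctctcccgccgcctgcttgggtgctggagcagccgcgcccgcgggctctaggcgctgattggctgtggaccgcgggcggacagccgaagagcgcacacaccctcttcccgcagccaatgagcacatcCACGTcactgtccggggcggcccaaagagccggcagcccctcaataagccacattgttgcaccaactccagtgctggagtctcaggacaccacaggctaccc
Pfkfb3, chr2:11502041-11502340, minus strand, 1 of its 2 windows: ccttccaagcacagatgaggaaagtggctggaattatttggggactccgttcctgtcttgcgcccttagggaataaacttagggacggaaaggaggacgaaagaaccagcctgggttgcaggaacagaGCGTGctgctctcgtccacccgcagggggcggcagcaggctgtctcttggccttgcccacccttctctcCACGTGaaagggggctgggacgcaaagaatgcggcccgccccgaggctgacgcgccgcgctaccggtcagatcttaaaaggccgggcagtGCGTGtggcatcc
P4ha2, chr11:54100674-54100973, plus strand: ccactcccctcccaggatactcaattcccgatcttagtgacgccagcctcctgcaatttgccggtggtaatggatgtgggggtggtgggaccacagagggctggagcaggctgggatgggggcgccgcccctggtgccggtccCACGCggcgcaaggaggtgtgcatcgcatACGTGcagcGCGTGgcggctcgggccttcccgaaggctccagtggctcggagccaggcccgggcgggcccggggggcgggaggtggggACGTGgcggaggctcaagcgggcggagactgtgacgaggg
Fbp1, chr13:62888233-62888532, minus strand: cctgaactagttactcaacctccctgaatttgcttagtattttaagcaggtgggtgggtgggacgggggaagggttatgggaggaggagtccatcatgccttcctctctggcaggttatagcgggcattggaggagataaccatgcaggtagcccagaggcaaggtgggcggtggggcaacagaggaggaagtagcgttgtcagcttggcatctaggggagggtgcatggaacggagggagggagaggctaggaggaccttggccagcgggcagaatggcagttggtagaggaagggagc
The Hk2 window holds ACGTG 2 times, the Slc2a1 window holds each motif 1 time, and the P4ha2 window holds each motif 2 times. The shown Pfkfb3 window holds GCGTG 2 times and CACGTG 1 time. That CACGTG reads as ACGTG on both strands, so the 2 counts of ACGTG in this window are the same site. For Pfkfb3 the first window by chromosome position is shown, and its other window (chr2:11553880-11554179) holds ACGTG 1 time and GCGTG 0 times. The Fbp1 window holds 0 of either. ACGTG was found in 63.9% of the 36 member windows and in 19.6% of all 32851 windows of the same length, and GCGTG in 52.8% and 32.4%. Either motif was present in at least 1 window of 26 of the 28 members (92.9%) and of 46.7% of all 27025 genes with a window. The members were picked as HIF pathway and glycolysis genes, so these shares only describe them, and a match is not a measured binding site.

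Among the carriers, Slc2a6, a facilitative sugar transporter of internal membranes, changed most, and it did so with TNFa in both genotypes. In KO cultures it stood at 3.07, 3.14, 3.23 and 3.54 with TNFa, 0.08, 0.32, 0.80 and 1.31 with LPS, and 0.22, 0.42, 0.94 and 1.06 with HA, against a lowest value of -0.82, a median of -0.36 and a highest of 0.20 in the 8 untreated cultures. It stood at -0.23, -0.05 and 0.46 with TSG-6 and at -0.15, 0.05, 0.15 and 0.27 with TSG-6 and HA. The TNFa arrays lay far above all others, the HA arrays just above the untreated ones, and those of the other 3 treatments overlapped them. In WT cultures Slc2a6 stood at 1.32 and 1.62 with TNFa, -0.54 and -0.09 with LPS, -0.67 and -0.23 with TSG-6, -0.77 and -0.32 with HA and -0.70 and -0.42 with both, against -1.33, -1.24, -1.15, -0.81 and -0.48 untreated. Here the TNFa arrays alone stood clear of the untreated ones. The difference with TNFa was 3.54 ± 0.21 in KO cultures, 11.7-fold (adjusted p = 2.19e-15), and 2.47 ± 0.28 in WT cultures, 5.53-fold (adjusted p = 2.04e-07). In KO cultures it also rose with LPS by 0.92 ± 0.21 and with HA by 0.96 ± 0.21 (adjusted p = 0.00946 and 0.0147), and the HA call was lost without the arrays high in 18S (1.08, adjusted p = 0.0691).

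Slc2a1, the widespread basal glucose transporter, rose by smaller amounts: 0.54 with TNFa, 0.43 with LPS and 0.41 with TSG-6 and HA in KO cultures, and 0.65 with LPS and 0.65 with TSG-6 and HA in WT cultures. All its differences were above 0, the smallest being 0.31 in KO and 0.44 in WT cultures, but all 5 calls were lost without the arrays high in 18S (adjusted p = 0.076 to 0.593 in KO and 0.302 to 0.581 in WT cultures). Slc16a3, the carrier that exports lactate, rose with the 2 treatments that contain TSG-6 in KO cultures, by 0.89 ± 0.24 with TSG-6 and 0.77 ± 0.22 with TSG-6 and HA. The treated arrays overlapped the untreated ones in both, through untreated replicate 3 (0.99). The next highest untreated array was at -0.18, below these treated arrays. Neither Slc16a3 call held without the arrays high in 18S (adjusted p = 0.38 and 0.382). Slc2a3, the transporter of neurons and activated leukocytes, was called under 0 of the treatments (limma).

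Of the 11 glycolytic enzymes, Hk2 and Ldha were the members called in a treatment, and the other 9 (Hk1, Pfkl, Pfkp, Aldoa, Tpi1, Gapdh, Pgk1, Pgam1 and Pkm) were not. The probe set used for Aldoa disagreed with its 4 others (r of -0.40 to 0.04 over the arrays), and that for Pfkp followed its others only in part (r of 0.07 and 0.55). In KO cultures Hk2 stood at 0.21, 0.25, 0.25 and 0.41 with TNFa, -0.05, 0.03, 0.21 and 0.21 with LPS, and -0.08, 0.30 and 0.34 with TSG-6, against a lowest value of -0.80, a median of -0.61 and a highest of -0.13 untreated. It stood at -0.30, -0.20, -0.04 and -0.0031 with HA and at 0.26, 0.28, 0.29 and 0.35 with TSG-6 and HA. All arrays with TNFa, LPS, TSG-6 or both lay above all untreated arrays, and those with HA overlapped them. In WT cultures Hk2 stood at -0.21 and 0.12 with TNFa, 0.07 and 0.46 with LPS, 0.29 and 0.55 with TSG-6, -0.46 and 0.0031 with HA, and 0.22 and 0.60 with both, against -0.88, -0.78, -0.51, -0.43 and -0.43 untreated. HA was again the treatment whose arrays overlapped the untreated ones. Hk2 rose in KO cultures by 0.82 ± 0.12 with TNFa, 0.64 ± 0.12 with LPS, 0.72 ± 0.13 with TSG-6 and 0.83 ± 0.12 with both. In WT cultures it rose by 0.56 ± 0.16, 0.87 ± 0.16, 1.03 ± 0.16 and 1.02 ± 0.16 in the same treatments, with the smallest margin for TNFa (adjusted p = 0.0469), a call that was lost without either TNFa array, or without untreated replicate 1, 2 or 3. Without the arrays high in 18S the Hk2 calls were lost in KO cultures with LPS (0.49, adjusted p = 0.213) and in WT cultures with TNFa (0.43, 0.706), LPS (0.72, 0.194) and both (0.87, 0.105). Ldha, the subunit of lactate dehydrogenase that favours lactate, rose in KO cultures by 0.28 with TNFa, 0.37 with TSG-6 and 0.37 with both, and the 3 calls were lost without the arrays high in 18S (adjusted p = 0.0958 to 0.25).

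Gapdh, a glycolytic enzyme often used as a reference gene, was read from an array control probe set. In KO cultures it stood at -0.18, -0.16, -0.01 and 0.11 with TNFa, -0.14, -0.11, -0.08 and 0.02 with LPS, -0.23, 0.04 and 0.10 with TSG-6, -0.36, -0.06, -0.04 and 0.06 with HA and -0.15, -0.02, -0.01 and 0.13 with both, against a lowest value of -0.50, a median of -0.17 and a highest of -0.06 untreated. In WT cultures it stood at 0.01 and 0.18 with TNFa, 0.22 and 0.26 with LPS, 0.22 and 0.24 with TSG-6, 0.14 and 0.22 with HA and 0.24 and 0.29 with both, against 0.02, 0.19, 0.20, 0.21 and 0.22 untreated. In KO cultures every treatment overlapped the untreated arrays, the WT arrays with TSG-6, alone or with HA, lay slightly above theirs, and no treatment difference of Gapdh was called in either genotype.

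Pfkfb3, the enzyme that makes the sugar bisphosphate activating phosphofructokinase, was the member called in all 5 treatments of KO cultures. There it stood at 0.49, 0.90, 1.06 and 1.15 with TNFa, 0.60, 0.62, 0.70 and 0.82 with LPS, and 0.60, 0.85 and 1.01 with TSG-6, against a lowest value of -0.62, a median of -0.28 and a highest of 0.14 untreated. It stood at 0.18, 0.20, 0.56 and 0.57 with HA and at 0.88, 0.90, 0.94 and 1.01 with TSG-6 and HA. All treated arrays lay above all untreated ones, by the least with HA. In WT cultures Pfkfb3 stood at -1.31 and -0.52 with TNFa, -0.78 and -0.37 with LPS, -0.78 and -0.51 with TSG-6, -1.20 and -0.80 with HA, and -0.92 and -0.25 with both, against -1.42, -1.35, -1.34, -1.29 and -0.92 untreated. The WT arrays with LPS, TSG-6 or both lay above all untreated WT arrays, and every treated WT array lay below every treated KO array. The KO differences were 1.16 ± 0.15 with TNFa, 0.94 ± 0.15 with LPS, 1.08 ± 0.17 with TSG-6, 0.63 ± 0.15 with HA (adjusted p = 0.0392, and 0.0807 without the arrays high in 18S) and 1.19 ± 0.15 with both. The WT differences, from 0.26 to 0.68, were not called, and the difference between the genotypes' responses was not called for any treatment (0.81 ± 0.26 for TNFa, adjusted p = 0.19). The other Pfkfb3 probe set gave 1.18 with TNFa and 1.11 with TSG-6 in KO cultures.

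Fbp1 responded in WT cultures. In KO cultures it stood at -0.41, -0.19, -0.17 and -0.01 with TNFa, -0.28, -0.26, -0.01 and 0.54 with LPS, -0.68, -0.34 and 0.06 with TSG-6, -0.51, -0.26, 0.12 and 0.20 with HA, and -0.72, -0.51, -0.20 and 0.20 with both, against a lowest value of -0.61, a median of -0.28 and a highest of 0.01 untreated. In WT cultures it stood at 1.02 and 1.82 with TNFa, 3.75 and 3.82 with LPS, 3.12 and 3.63 with TSG-6, 2.60 and 2.94 with HA, and 3.41 and 3.81 with both, against 1.32, 1.67, 1.72, 1.76 and 2.10 untreated. The KO arrays of all treatments overlapped the untreated KO arrays, while the WT arrays with LPS, TSG-6, HA and both lay above all untreated WT arrays. In WT cultures Fbp1 rose by 2.07 ± 0.25 with LPS, 1.66 ± 0.25 with TSG-6 and 1.89 ± 0.25 with both, 4.19-fold, 3.16-fold and 3.72-fold, and differed by 1.06 ± 0.25 with HA (adjusted p = 0.087). Pdk1, a kinase that switches off pyruvate dehydrogenase, was not called under any treatment, and its other probe sets differed from the one used (r of -0.32 to 0.77 over the arrays).

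Of the HIF alpha subunits, Epas1 rose in KO cultures with TNFa, LPS and HA, and Hif1a was not called in any treatment. In KO cultures Epas1 stood at -0.06, 0.0028, 0.25 and 0.64 with TNFa, -0.11, 0.04, 0.19 and 0.41 with LPS, and 0.04, 0.09, 0.10 and 0.38 with HA, against a lowest value of -1.11, a median of -0.66 and a highest of -0.24 untreated. It stood at -0.68, -0.54 and -0.01 with TSG-6 and at -0.55, -0.54, 0.06 and 0.11 with both. The arrays with TNFa, LPS and HA lay above all untreated KO arrays and those with TSG-6, alone or with HA, did not. In WT cultures Epas1 stood at -0.65 and 0.20 with TNFa, 0.65 and 0.81 with LPS, -0.24 and 0.54 with TSG-6, -0.0028 and 0.60 with HA and -0.18 and 0.56 with both, against -0.41, -0.36, 0.18, 0.33 and 0.42 untreated. Only the LPS arrays of the WT cultures lay clear of the untreated ones. The KO differences were 0.89 ± 0.20 with TNFa, 0.82 ± 0.20 with LPS and 0.84 ± 0.20 with HA (adjusted p = 0.00177, 0.0239 and 0.0409). The Epas1 calls with LPS (0.78, adjusted p = 0.252) and HA (0.73, 0.324) were lost without the arrays high in 18S.

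Hif1a stood in KO cultures at -0.24, -0.14, -0.12 and -0.06 with TNFa, -0.37, -0.20, 0.33 and 0.34 with LPS, 0.10, 0.12 and 0.77 with TSG-6, -0.17, -0.06, 0.08 and 0.09 with HA, and -0.02, 0.26, 0.53 and 0.65 with both, against a lowest value of -1.80, a median of -0.25 and a highest of 0.45 untreated. In WT cultures it stood at -1.26 and 0.26 with TNFa, 0.12 and 0.49 with LPS, -0.18 and 0.37 with TSG-6, -0.26 and 0.49 with HA, and 0.02 and 0.57 with both, against -0.56, -0.50, -0.41, -0.17 and 0.17 untreated. Every treated group overlapped its untreated arrays, and an untreated KO array and a WT array with TNFa lay lowest. Of 4 Hif1a probe sets, 1 other than the one used was higher with TSG-6 in KO cultures. HIF alpha subunits are controlled mainly through protein stability, which arrays do not measure.

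Of the prolyl hydroxylases that mark HIF alpha subunits for destruction, Egln3 rose with TNFa in KO cultures and with LPS in WT cultures. In KO cultures Egln3 stood at 0.20, 0.23, 0.31 and 0.60 with TNFa, -0.47, -0.40, -0.19 and 0.18 with LPS, -0.39, -0.33 and -0.10 with TSG-6, -1.14, -0.52, -0.44 and 0.10 with HA, and -0.81, -0.59, -0.39 and -0.11 with both, against a lowest value of -0.77, a median of -0.45 and a highest of -0.34 untreated. In WT cultures it stood at 2.15 and 2.17 with TNFa, 2.57 and 2.59 with LPS, 2.35 and 2.64 with TSG-6, 2.12 and 2.38 with HA, and 2.17 and 2.67 with both, against 1.54, 1.57, 1.59, 1.74 and 1.88 untreated. All treated WT arrays lay above all untreated WT arrays, but in KO cultures the TNFa arrays alone did so. Egln3 rose by 0.84 ± 0.15 with TNFa in KO cultures and by 0.92 ± 0.21 with LPS in WT cultures. The Egln3 call in WT cultures was lost without the arrays high in 18S (0.91, adjusted p = 0.192) and that in KO cultures held (adjusted p = 0.00396). Egln1, the main oxygen-sensing hydroxylase, rose with TSG-6 in KO cultures by 0.46 ± 0.14, a call lost without the arrays high in 18S (adjusted p = 0.264).

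Ndrg1, a stress-response gene often raised by hypoxia, went the other way. In KO cultures it stood at -0.14, -0.01, 0.03 and 0.25 with TNFa, -0.89, -0.62 and -0.49 with TSG-6, and -1.09, -0.76, -0.70 and -0.39 with TSG-6 and HA, against a lowest value of 0.19, a median of 0.64 and a highest of 1.04 untreated. It stood at 0.24, 0.47, 0.48 and 0.53 with LPS and at 0.01, 0.27, 0.47 and 0.72 with HA. All arrays that had TSG-6 lay below all untreated arrays, and those with LPS, HA or TNFa overlapped them. In WT cultures Ndrg1 stood at -1.34 and -0.42 with TNFa, -0.90 and -0.07 with LPS, -0.76 and -0.28 with TSG-6, -0.78 and -0.05 with HA, and -1.31 and -0.49 with both, against -0.66, -0.55, 0.06, 0.14 and 0.38 untreated. Each treated WT group overlapped the untreated one. In KO cultures Ndrg1 fell by 1.31 ± 0.22 on the log2 scale with TSG-6 and by 1.38 ± 0.20 with both (adjusted p = 0.000195 and 9.13e-06), and by 0.61 ± 0.20 with TNFa. All 5 Ndrg1 probe sets fell with TSG-6 in KO cultures, from -1.31 to -1.10. The TNFa call (adjusted p = 0.0349) was lost without any of the TNFa replicates 2, 3 or 4, without untreated replicate 3, 4 or 6, or without the arrays high in 18S.

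**Figure D2:**
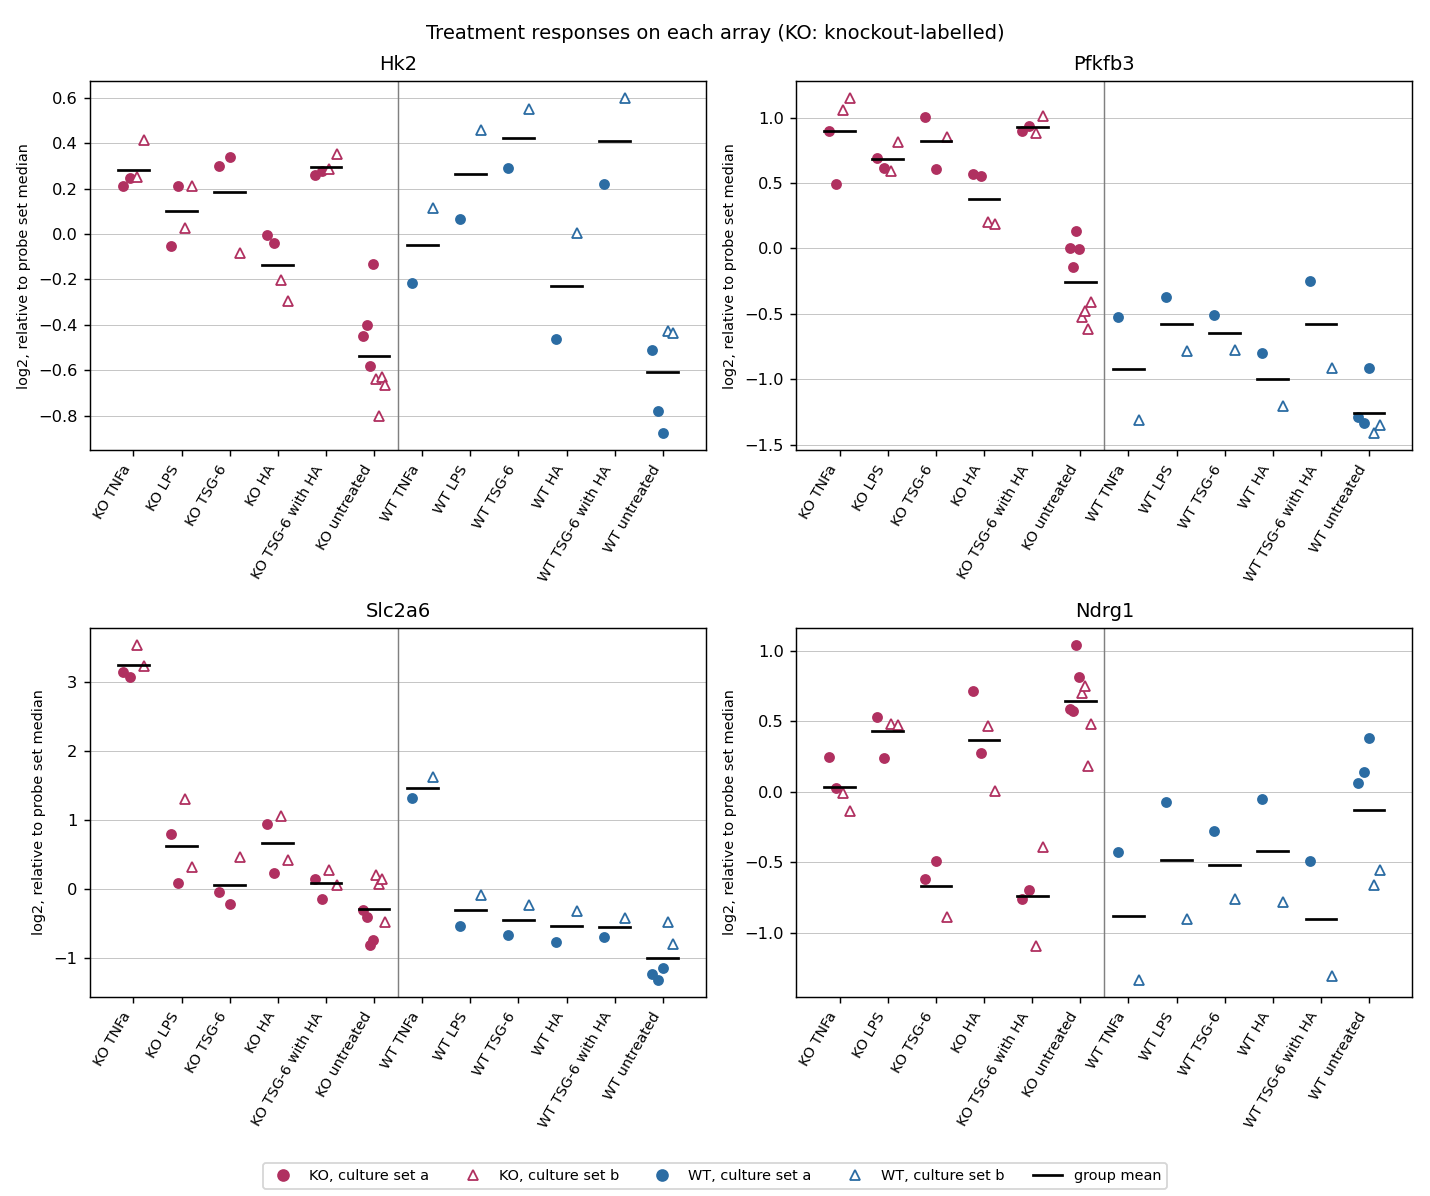
Log2 values relative to the probe set median (vertical axis) on each of the 42 arrays for Hk2, Pfkfb3, Slc2a6 and Ndrg1, by genotype and treatment (KO left, WT right), with symbols for the culture set and a bar for the group mean. Slc2a6 lies between 3.07 and 3.54 on the KO arrays with TNFa, and Ndrg1 between -1.09 and -0.39 on the KO arrays that had TSG-6 and HA.

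Of the other HIF targets, P4ha2, a catalytic subunit of the enzyme that hydroxylates collagen prolines, rose in 4 KO treatments and 1 WT treatment. Its KO differences were 0.97 ± 0.09 with TNFa, 0.40 with LPS, 0.37 with TSG-6 and 0.39 with both, and in WT cultures it rose by 0.51 with LPS. P4ha1, its sister subunit, rose by 0.51 with TSG-6 in KO cultures. The probe set used followed the other one only in part for P4ha1 (r = 0.48 over the arrays) and for Vegfa (r = 0.37). Ero1l, which makes disulphide bonds in the endoplasmic reticulum, rose by 0.65 with TNFa, and Vegfa, the vessel growth factor, by 0.51 with LPS, both in KO cultures. Without the arrays high in 18S the calls of P4ha1 (adjusted p = 0.188), Ero1l (0.117) and Vegfa (0.279) were lost, as were those of P4ha2 with LPS in KO (0.128) and WT cultures (0.0567) and with TSG-6 (0.0844). Ankrd37 was not called under any treatment.

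Bnip3, a mitochondrial protein that promotes removal of mitochondria, rose with LPS in WT cultures. In KO cultures it stood at -0.12, -0.10, 0.07 and 0.34 with TNFa, 0.31, 0.48, 0.50 and 0.63 with LPS, 0.11, 0.19 and 0.24 with TSG-6, -0.05, 0.12, 0.16 and 0.33 with HA, and -0.33, -0.03, 0.26 and 0.44 with both, against a lowest value of -0.19, a median of 0.10 and a highest of 0.38 untreated. In WT cultures it stood at -0.74 and -0.63 with TNFa, -0.05 and 0.14 with LPS, -0.51 and -0.44 with TSG-6, -0.60 and -0.38 with HA, and -0.63 and -0.33 with both, against -1.01, -0.98, -0.96, -0.93 and -0.92 untreated. All treated WT arrays lay above all untreated WT arrays, the LPS arrays highest, while each KO treatment overlapped the untreated KO arrays. The WT difference with LPS was 1.01 ± 0.15 (adjusted p = 6.41e-05), and that in KO cultures was 0.39 ± 0.11 (adjusted p = 0.066).

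Adm and Car9 were not called under any treatment. Adm, a vessel-widening peptide, stood in KO cultures at 0.31, 0.68, 0.73 and 0.83 with TNFa, -0.29, 0.17, 0.23 and 0.55 with LPS, -0.37, -0.01 and 0.02 with TSG-6, 0.04, 0.10, 0.31 and 0.52 with HA, and -0.34, 0.02, 0.08 and 0.24 with both, against a lowest value of -0.47, a median of 0.23 and a highest of 0.56 untreated. In WT cultures Adm stood at -0.75 and -0.25 with TNFa, -0.86 and -0.44 with LPS, -1.31 and -0.95 with TSG-6, -1.27 and -0.50 with HA, and -1.07 and -0.68 with both, against -1.19, -1.17, -1.05, -0.66 and -0.64 untreated. Every treated Adm group overlapped its untreated arrays, and in each condition the KO arrays lay above the WT arrays. Car9, a carbonic anhydrase of the cell surface, stood in KO cultures at -0.06, 0.15, 0.21 and 0.67 with TNFa, -0.03, 0.18, 0.57 and 0.81 with LPS, -0.0018, 0.47 and 0.65 with TSG-6, 0.07, 0.09, 0.44 and 0.80 with HA, and -0.07, 0.25, 0.30 and 0.46 with both, against a lowest value of -0.18, a median of 0.16 and a highest of 0.71 untreated. In WT cultures Car9 stood at -1.18 and -1.10 with TNFa, -1.16 and -1.09 with LPS, -1.40 and -0.95 with TSG-6, -1.29 and -0.96 with HA, and -1.24 and -0.81 with both, against -1.28, -1.18, -1.16, -1.11 and -0.92 untreated. All KO arrays of Car9 lay above all WT arrays, with or without treatment.

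Between the genotypes, the members did not move in 1 direction. In untreated cultures 10 members were higher and 7 lower in KO than in WT cultures, where 37.6% of all genes were called, 21.3% higher and 16.3% lower. The median difference over the members was 0.05, and over all genes 0.03. The members higher in untreated KO cultures were Car9 (1.34 ± 0.16), Adm (1.13 ± 0.17), Bnip3 (1.05 ± 0.10), Pfkfb3 (1.01 ± 0.14), Slc2a6 (0.70), Ndrg1 (0.77), Egln1 (0.41), Tpi1 (0.39), Ldha (0.36) and Slc2a3 (0.78, but -0.12 after cyclic loess between arrays). The members lower in untreated KO cultures were Hk1 (-0.67), Epas1 (-0.72), Ankrd37 (-0.46), Gapdh (-0.39) and Pkm (-0.35), with Egln3 (-2.17 ± 0.14, but 0.15 after cyclic loess) and Fbp1 (-1.97 ± 0.17, but 1.03 after cyclic loess). On centred values cyclic loess runs along the differences themselves, so it cannot settle these directions. The probe set used for Slc2a3 followed its others unevenly (r of 0.26, 0.49 and 0.95 over the arrays). Of 11 endothelial markers, 10 were lower in untreated KO cultures, with a median difference of -5.20, and their mean ranged from -1.32 to 0.25 in KO and from 3.71 to 4.03 in WT cultures. Of 6 chondrocyte markers 3 were higher in KO cultures, of 12 macrophage markers 1 was lower, of 6 skeletal muscle markers 1 was higher and 1 lower, and of 13 fibroblast markers 5 were higher and 4 lower. The part of these cell type markers in the members' differences was not tested. The sets of the 2 genotypes were found separately and nothing ties a KO set to a WT set, so all 4 pairings of a KO with a WT set were compared. Of the 17 members 16 kept their sign in all 4, and Tpi1 kept it in 3 (-0.08 in the other).

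Under treatment, 11 members were higher and 2 lower in KO than in WT cultures with TNFa, where 23.5% of all genes were called, 13.6% higher and 9.88% lower. With LPS 7 were higher and 4 lower, where 24.0% of all genes were called, 13.4% higher and 10.6% lower. With TSG-6 7 were higher and 3 lower (18.9% of all genes, 10.3% higher and 8.68% lower). With HA 10 were higher and 3 lower (23.3% of all genes, 13.2% higher and 10.1% lower), and with both 6 were higher and 4 lower (21.6% of all genes, 12.0% higher and 9.61% lower). Pfkfb3, Bnip3, Adm and Car9 were higher in KO cultures in all 6 conditions, except that after cyclic loess Bnip3 and Adm turned to -0.15 and -0.13 with LPS. Without the arrays high in 18S, which leaves 1 WT array in each treated group except TSG-6, Pfkfb3 and Car9 stayed called. Bnip3 was then not called with TNFa (0.52), LPS (0.45), HA (0.53) or both (0.46). Adm was then not called with LPS (0.80), HA (0.79) or both (0.81). Egln3 and Fbp1 were lower in all 6, and every KO array lay below every WT array. After cyclic loess the Egln3 and Fbp1 differences turned to 0.29 and 1.10 with TNFa, and they also turned in untreated cultures. On centred values cyclic loess has no level axis and runs along the differences themselves, so its turns cannot settle a direction. The Egln3 difference ran from -2.90 with both agents to -1.82 with TNFa, and the Fbp1 difference from -3.92 with both to -1.62 with TNFa. Ankrd37 was lower in KO cultures in 5 of the 6 conditions and Ldha and Egln1 higher in 5. Without the arrays high in 18S, Egln1 stayed called only in untreated cultures and Ankrd37 only with TSG-6 and with both. Ldha then stayed called only untreated, with TNFa and with TSG-6. The Pfkfb3 difference ran from 1.01 to 1.82, that of Car9 from 1.26 to 1.55, that of Adm from 0.81 to 1.14 and that of Bnip3 from 0.43 to 1.05. Among the other members, Slc2a6 differed by 1.78 with TNFa, 1.20 with HA and 0.94 with LPS, Slc2a3 by 1.46 with TNFa, 1.20 with HA and 0.80 with LPS, P4ha2 by 0.99 with TNFa and Ndrg1 by 0.92 with LPS. The Slc2a3 difference with LPS turned to -0.12 after cyclic loess, as in untreated cultures. Without the arrays high in 18S, the LPS differences of Slc2a3 (0.77) and Ndrg1 (0.58) were not called. In each condition 10 or 11 of the 11 endothelial markers were lower in KO cultures, and their part in these differences was not tested. After cyclic loess the counts called were 5 with TNFa, 5 with LPS, 4 with TSG-6, 4 with HA and 5 with both. Without the arrays high in 18S they were 5 with LPS, 7 with HA and 5 with both, and with the compared groups alone 8 with HA and 6 with both. Leaving out replicate 2 of the treated WT group gave 5 with LPS, 6 with TSG-6, 5 with HA and 6 with both, leaving out KO LPS replicate 3 gave 7, and leaving out KO HA replicate 1 gave 8.

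**Figure D3:**
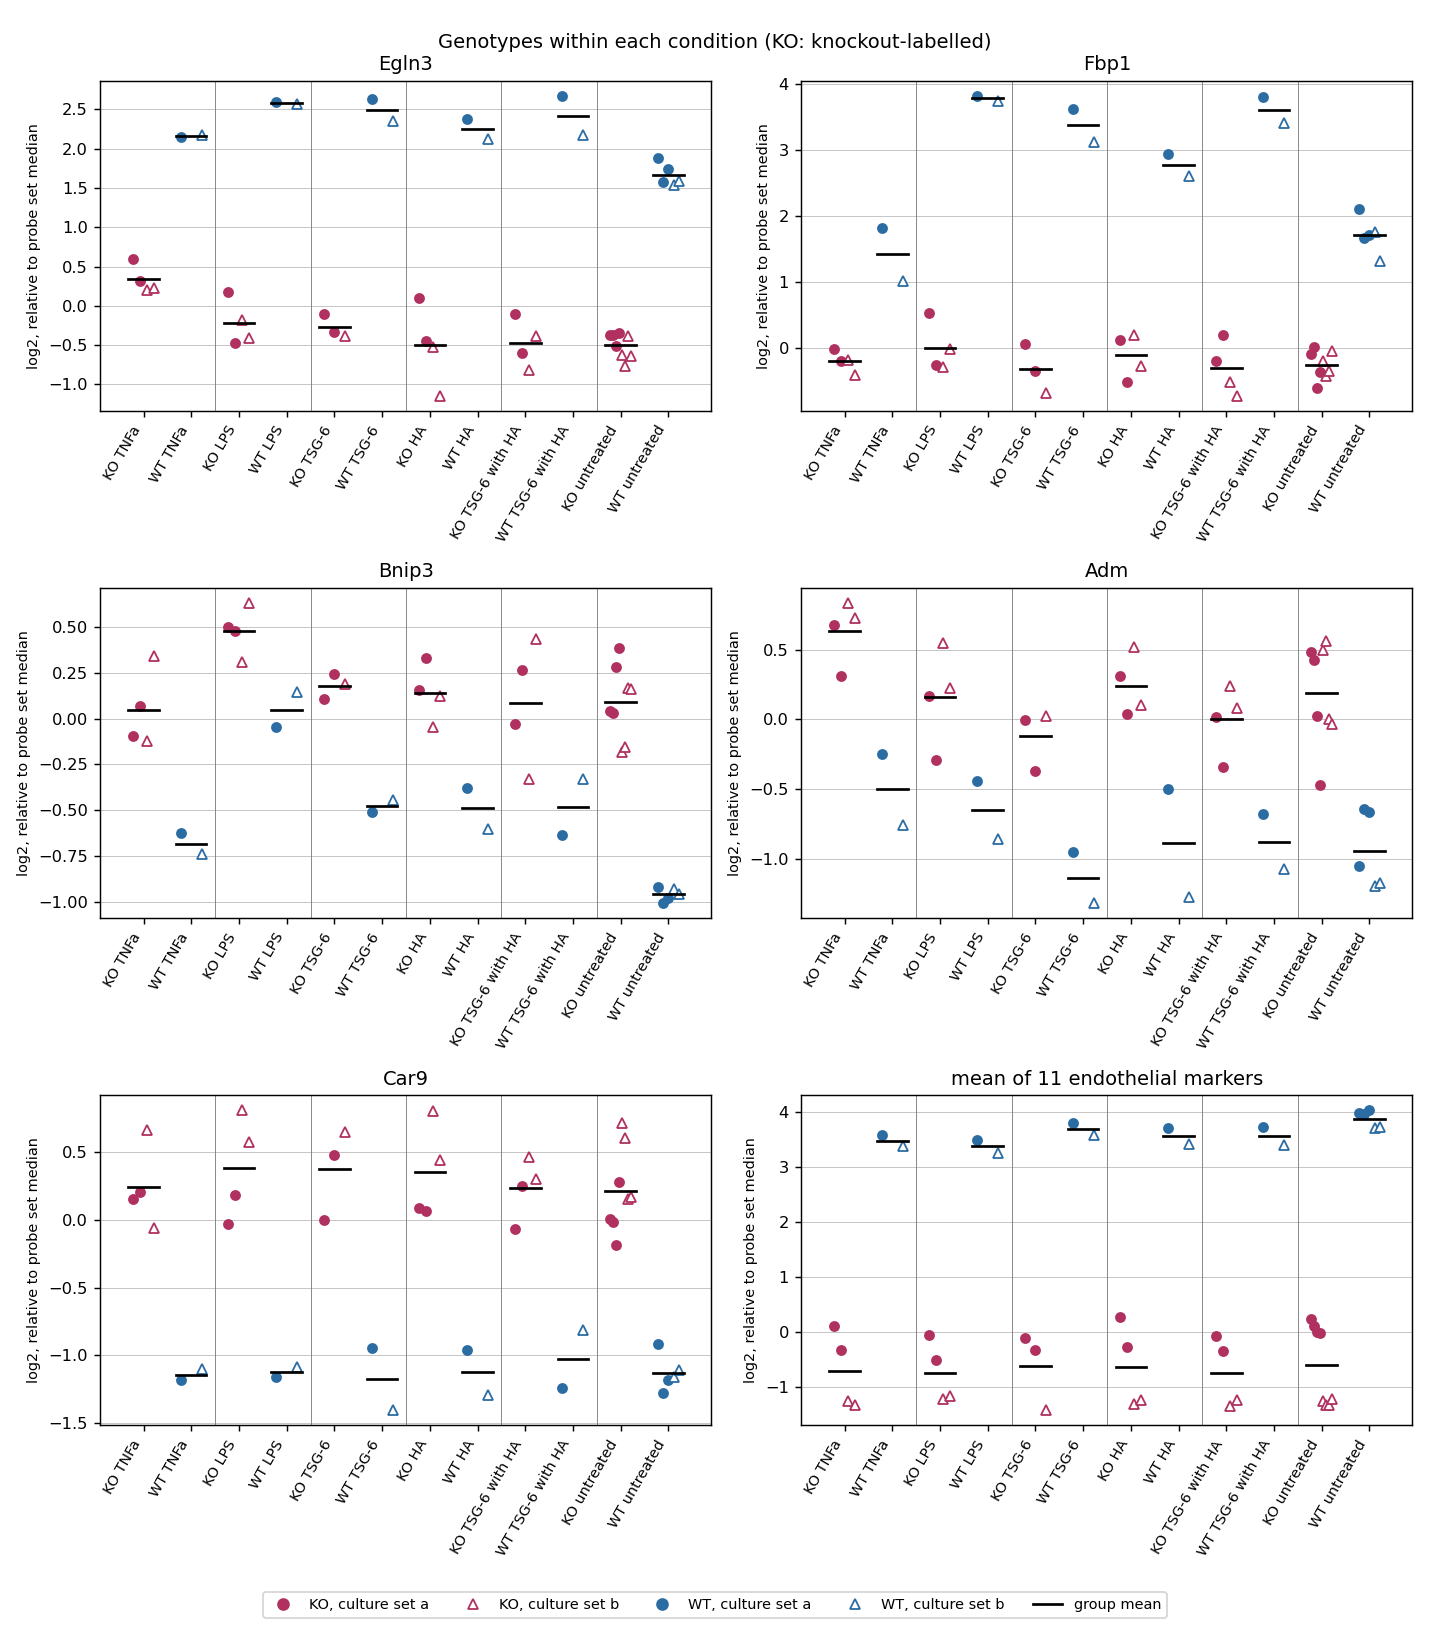
Log2 values relative to the probe set median (vertical axis) on each array for Egln3, Fbp1, Bnip3, Adm and Car9 and for the mean of 11 endothelial markers, with KO left of WT in each of 6 conditions, symbols for the culture set and a bar for the group mean. Car9 lies above all WT arrays on every KO array, while Egln3, Fbp1 and the endothelial mean lie below all WT arrays on every KO array. After cyclic loess the untreated Egln3 and Fbp1 differences turn to 0.15 and 1.03, and the LPS differences of Bnip3 and Adm to -0.15 and -0.13. On centred values that scaling runs along the differences themselves, so these turns cannot settle a direction.

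The test of whether a response itself differed between the genotypes called Fbp1 for 3 treatments and P4ha2 for 1. The KO response of Fbp1 minus the WT response was -1.81 ± 0.31 for LPS (0.214% of all genes called), -1.72 ± 0.32 for TSG-6 (0.0824%) and -1.94 ± 0.31 for TSG-6 with HA (0.181%), with adjusted p = 0.00113, 0.0175 and 0.000879. For P4ha2 the difference in the TNFa response was 0.83 ± 0.15 (adjusted p = 0.00151, 0.808% of all genes called). P4ha2 averaged 0.77 ± 0.14 with TNFa and -0.20 ± 0.10 untreated in KO cultures (SD, n = 4 and 8), and -0.22 ± 0.26 with TNFa and -0.37 ± 0.13 untreated in WT cultures (SD, n = 2 and 5). For HA 0 members were called by limma, where 0.0440% of all genes were, and 3 of the 31 had an unadjusted p under 0.05. The endothelial markers in WT cultures averaged 3.26 to 3.80 in the treated cultures, with 3.26 and 3.49 under LPS, and 3.71 to 4.03 untreated. Their part in the Fbp1 responses was not tested. Without the arrays high in 18S, which leaves 1 WT array with TNFa, LPS or both, none of these 4 stayed under the threshold: P4ha2 was 0.68 (adjusted p = 0.151) and Fbp1 was -1.60 for LPS (0.361), -1.59 for TSG-6 (0.191) and -2.07 for both (0.0822). The P4ha2 call was lost without WT TNFa replicate 2 alone (0.64), which is the array of its group that is high in 18S. The Fbp1 call for TSG-6 was lost without WT TSG-6 replicate 1 (-1.47) or KO TSG-6 replicate 3 (-1.54, limma adjusted p = 0.0667). With the culture set as a block 4 members were called for TNFa, where 2.22% of all genes were called, and 2 for TSG-6, where 0.478% were. After cyclic loess 2 were called for TSG-6 with HA.

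**Figure D4:**
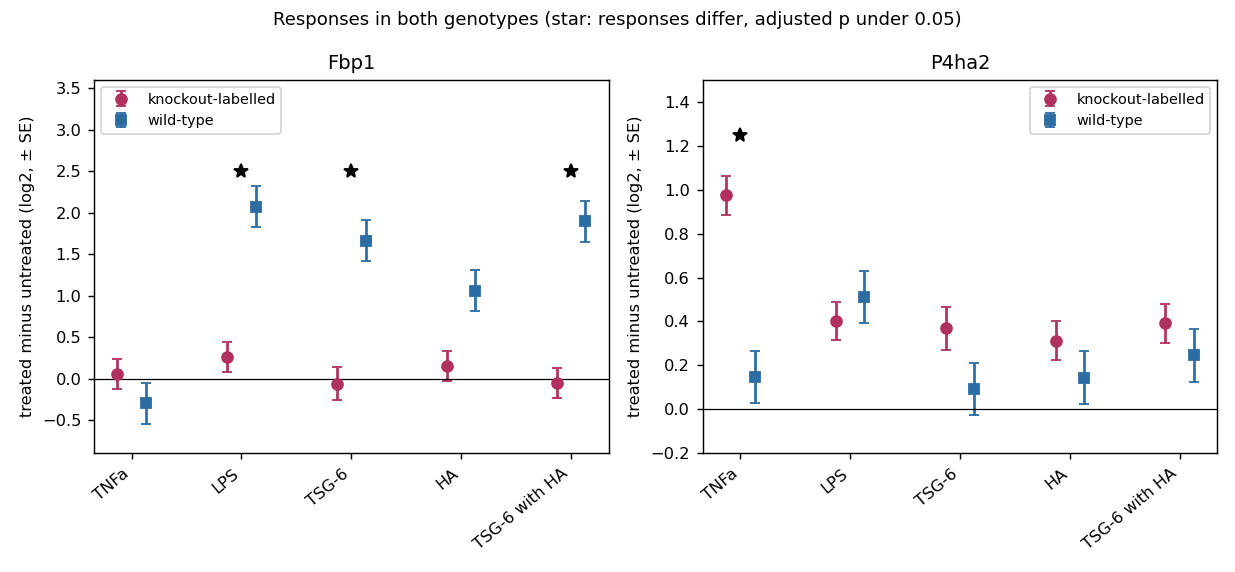
Treated minus untreated difference (log2, ± SE, vertical axis) of Fbp1 and P4ha2 under 5 treatments in KO cultures (circles) and WT cultures (squares), with a star where the responses differed. Fbp1 is near 0 in KO cultures and at 2.07, 1.66 and 1.89 in WT cultures with LPS, TSG-6 and both, and P4ha2 with TNFa is at 0.97 in KO cultures and 0.15 in WT cultures.

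TNFa and LPS, which share the untreated arrays, were also compared directly. In KO cultures Slc2a6 was higher with TNFa than with LPS by 2.62 ± 0.24, 6.15-fold, and P4ha2 by 0.57 ± 0.10, where 3.50% of all genes were called. In WT cultures Slc2a6 was higher with TNFa by 1.78 ± 0.34 and Fbp1 differed by -2.36 ± 0.30, lower with TNFa, where 0.445% of all genes were called. In each genotype the other 29 members were not called. With the culture set as a block the counts were 4 in KO cultures, where 6.23% of all genes were called, and 5 in WT cultures, where 1.24% were. The WT count was 0 without the arrays high in 18S and with the compared groups alone, and it was 1 without WT TNFa replicate 2 or WT LPS replicate 1.

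Around these members, other genes of glucose and lactate metabolism were read from lists of neighbouring pathways, which were not refitted under other scalings. Slc16a1, a carrier of lactate and pyruvate, rose in KO cultures by 1.03 with LPS, 0.98 with TSG-6, 0.67 with HA and 1.10 with both, and in WT cultures by 1.66 with LPS, 1.33 with TSG-6 and 1.44 with both. Pdk4, another kinase that switches off pyruvate dehydrogenase, fell in KO cultures by 2.19 on the log2 scale with TNFa, by 0.71 with LPS, by 1.34 with TSG-6 and by 1.55 with both, and in WT cultures by 1.42 with TNFa and by 1.01 with both. Among 36 further HIF targets in KO cultures, 5 were higher and 4 lower with TNFa, where 14.0% of all genes were called, 2 and 0 with LPS (1.79%), 3 and 1 with TSG-6 (4.75%), 0 and 0 with HA (0.643%) and 4 and 2 with both (9.94%). In WT cultures 2 were higher with TNFa (2.56% of all genes called), 3 with LPS (1.19%), 4 with TSG-6 (0.429%), 0 with HA (0.132%) and 3 with both (0.802%), with 0 lower, and Angptl4, a lipoprotein lipase inhibitor, was the largest with LPS (1.60). Of 19 genes of the tricarboxylic acid cycle, 0 rose and 2 fell with TNFa in KO cultures, a share near the 14.0% of all genes called, and Idh2 had the largest fall (-1.03). Of 15 regulators of the HIF pathway 1 rose and 1 fell with TNFa in KO cultures, again near the 14.0%. Of 17 other isoforms and side enzymes of glycolysis, 3 rose and 5 fell with TNFa in KO cultures, where 14.0% of all genes were called, and 0 rose and 0 fell with LPS, where 1.79% were. Ldhb, the subunit of lactate dehydrogenase that favours pyruvate, fell in KO cultures by 0.63 with TNFa, by 0.84 with TSG-6 and by 0.92 with both.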

How the data were processed

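The deposited values are log2 expression from 1-colour Affymetrix arrays, summarised by RMA per the submitters' processing notes and centred by the authors on each probe set's median. Base 2 was inferred from the range of the values, and the array's build and annotation version are not given in the sources used here. Of 45101 probe sets, 34958 were paired with a single gene, 932 with several and 9211 with none. A gene with several probe sets was represented by the one with the largest SD, avoiding a correlation above 0.7 with the 18S probe set where possible. No filter on dim probes was possible on centred values. limma 3.58.1 in R 4.3.3 was fitted to 12 group means over 42 arrays, with Benjamini-Hochberg adjustment over 18194 genes, after a test on simulated data. Values on every array are given for members past the threshold with a difference of at least 1 in a treatment or the untreated genotype comparison, and for Hif1a, Epas1 and Gapdh. In other comparisons up to 8 called members are named. The members, lists and choices were made with earlier results of these data known. Setting array medians to 0 was added after seeing the data.

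Same-numbered treated and untreated cultures deviated from their group means with correlations of -0.65 to 0.59, so replicate numbers were not used as pairs. The number of arrays limits the precision.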

Additional observations from a re-analysis of the deposited data

Results flagged for a closer look

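The response of Fbp1 differed between KO and WT cultures by -1.81 for LPS, -1.72 for TSG-6 and -1.94 for TSG-6 with HA, and the response of P4ha2 to TNFa by 0.83, each by the test of the difference itself. Of 72 pairs of a member and a group with 4 to 10 arrays, 2 held an array that stood apart from its group, and chance gives about 1 in 20. Gapdh was 0.0244 on untreated WT replicate 1, where the nearest other untreated WT array was at 0.19. Pfkfb3 was -0.92 on untreated WT replicate 3, where the nearest was at -1.29. Neither array was high in 18S.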

How the results depend on the processing

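Of 130 member calls, 128 held when culture set was a block, 128 with the mean of a gene's probe sets, 128 with array medians set to 0, 124 without the less specific probe sets, 94 with the compared groups alone, 82 after cyclic loess and 73 without the arrays high in 18S. No call changed direction outside cyclic loess, which turned 8 calls between KO and WT cultures: in untreated cultures Slc2a3 to -0.12, Fbp1 to 1.03 and Egln3 to 0.15, with TNFa Fbp1 to 1.10 and Egln3 to 0.29, and with LPS Slc2a3 to -0.12, Bnip3 to -0.15 and Adm to -0.13. On centred values cyclic loess has no level axis and runs along the differences themselves. It also moved the counts called between KO and WT to 5 with TNFa, 5 with LPS, 4 with TSG-6, 4 with HA and 5 with both, the WT HA count to 2 and the response difference for both to 2.

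Counts of members called moved by over 1.5 times as follows, and the cause was not tested. Without the arrays high in 18S, KO counts were 6 with TNFa, 2 with LPS, 3 with TSG-6, 0 with HA and 4 with both, WT counts were 1 with TNFa, 2 with LPS and 1 with both, KO against WT gave 5 with LPS, 7 with HA and 5 with both, the response differences gave 0 for TNFa, LPS, TSG-6 and both, and TNFa against LPS in WT gave 0. Fewer arrays were then fitted. With the compared groups alone, counts were 4 with TSG-6 and 1 with HA in KO, 1 with TNFa, 3 with LPS, 1 with TSG-6 and 1 with both in WT, 8 with HA and 6 with both between KO and WT, and 0 for TNFa against LPS in WT. With the culture set as a block, counts were 5 with HA in KO, 4 with TNFa, 12 with LPS, 4 with TSG-6, 1 with HA and 6 with both in WT, 4 and 2 for the response differences for TNFa and TSG-6, and 4 and 5 for TNFa against LPS in KO and WT. The shares of all genes called in that fit are given with these counts in the Results. Shares for the other fits are not given, so their counts do not show whether the members moved more than all genes. With the mean of all probe sets the KO count with both was 11.

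With the replicate number as a block, counts were 5 with TSG-6 in KO, 4 with TNFa, 12 with LPS, 6 with TSG-6 and 6 with both in WT, 2 for the response difference for TNFa, and 4 and 5 for TNFa against LPS in KO and WT. The block moved no other count by over 1.5 times, and 121 of the 130 calls held with it.

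Leaving out 1 array gave these lowest and highest counts, a lone remaining array being assumed to vary like the other groups. In KO cultures they were 8 to 13 with TNFa, 3 to 9 with LPS, 3 to 9 with TSG-6, 0 to 3 with HA and 5 to 9 with both, and in WT cultures 1 to 2, 2 to 7, 1 to 2, 0 to 1 and 1 to 3. Between KO and WT they were 17 to 18 untreated, 9 to 14 with TNFa, 5 to 10 with LPS, 6 to 10 with TSG-6, 5 to 13 with HA and 6 to 10 with both. For the response differences they were 0 to 2 for TNFa (2 without WT TNFa replicate 1), 1 to 1 for LPS, 0 to 1 for TSG-6, 0 to 0 for HA and 1 to 1 for both, and for TNFa against LPS 2 to 3 in KO and 1 to 2 in WT. With 2 arrays in each treated WT group, small WT differences were hard to detect.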
